A study of Mus musculus with 6 samples.

Results

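The genes described here are 10 transcription factors of the embryonic heart and outflow tract: Gata4, Gata5, Gata6, Tbx2, Tbx3, Tbx5, Nkx2-5, Irx4, Hand2 and Mef2c. They were picked by gene symbol from the deposited gene table, where all 10 were found among 46983 genes, and all 10 passed the minimum level for testing. The tissue was the aortic valve of wild type C57BL/6J mice, untreated and with no altered allele, taken 2 days after birth (PND2, postnatal day 2) or from adults of 4 months. There were 3 sequencing libraries at each age. Replicate numbers do not pair the libraries between the ages, so a number shared by both ages carries no meaning. Each library came from the valves of 5 to 6 pooled mice, so differences between single animals are averaged within it. Levels are RPKM, reads scaled by the length of all annotated exons of the gene together and by the library total. Annotated exons with few reads lower the value, so levels of different genes can be compared only roughly.

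These factors work as a network in heart development. GATA proteins bind DNA through zinc fingers and act together with the homeodomain protein Nkx2-5, with T-box proteins, with the basic helix-loop-helix protein Hand2 and with Mef2c, a MADS-box protein. They are needed for the chambers, the endocardial cushions from which the valves form and the outflow tract that becomes the base of the great arteries. Mutations of GATA4, GATA5, GATA6, NKX2-5 and TBX5 are known from congenital heart disease, including malformed aortic valves for several of them.

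Library totals ran from 23810507 to 38994657, and the members were covered by between 68 reads (Irx4, 4 months replicate 1) and 11978 reads (Gata6, PND2 replicate 2) in a library. The valve interstitial or fibroblast markers Dcn, Vim, Bgn, Col3a1, Postn and Col1a1 were all abundant, with means from 520 to 3961 RPKM. Muscle transcripts were abundant as well. The 22 cardiomyocyte markers summed to 25465 to 28604 RPKM at PND2 and 10354 to 18468 RPKM at 4 months. None of the 22 was at 0 across an age. The paper states that myocardial contamination of the isolated valves was minimal. The part of attached heart muscle in the values of the factors was not tested. PND2 replicate 1 stood apart from the other PND2 libraries in the balance of reads along transcripts, with a median log2 ratio of the 3′ to the 5′ exon over 2448 genes with separately counted end exons of 0.85 against 0.56 and 0.53, where the 4-month libraries had 0.73 to 0.81. That library also had the lowest summed level of the 10 factors at PND2.

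At 4 months, 5 of the 10 factors had fallen (Gata4, Gata5, Gata6, Nkx2-5 and Irx4), 1 had risen (Mef2c), and 4 passed the test in neither direction (Tbx2, Tbx3, Tbx5 and Hand2). Of the 25903 genes tested, 21.1% were called lower and 14.7% higher at 4 months (35.8% in either direction) by the same test, limma with an adjusted p under 0.05. The 6 called factors were also those whose libraries did not overlap between the ages, lower for 5 and higher for 1, against 29.9% and 20.0% of all genes tested. The median log2 difference (4 months minus PND2) of the 10 was −0.83, beside −0.14 for all genes tested. Summed over the 10 factors, the level was 298, 407 and 383 RPKM in the PND2 libraries and 207, 209 and 206 RPKM in the 4-month libraries. In bulk tissue, fewer cells of a type and less RNA per cell cannot be told apart, for these and all later values.

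**Figure D1:**
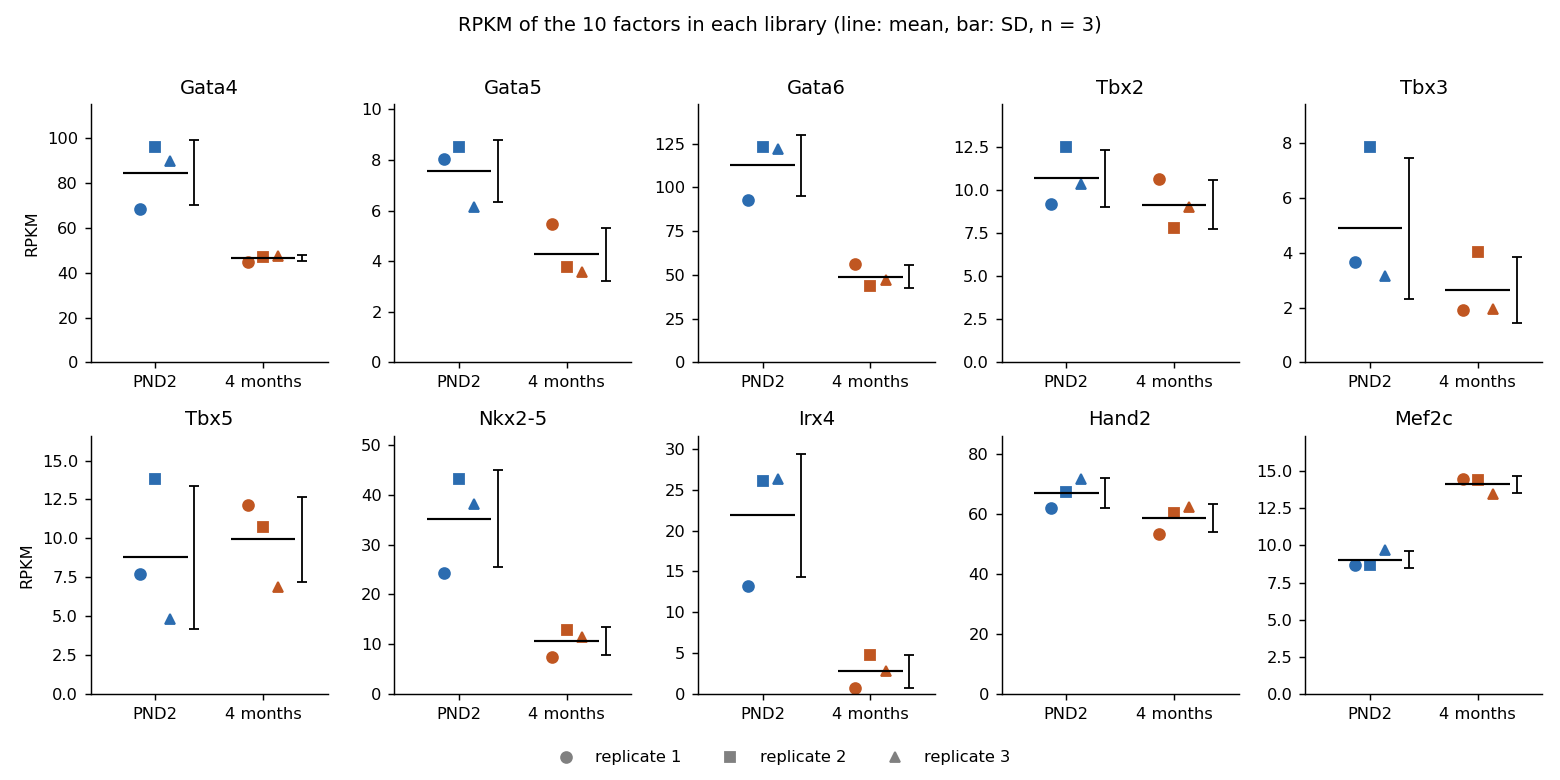
Each panel plots the RPKM of 1 factor in the 3 libraries of each age on an axis that starts at 0, with the mean as a line and the SD as a bar. The ages do not overlap for Gata4, Gata5, Gata6, Nkx2-5 and Irx4, which are lower at 4 months, or for Mef2c, which is higher.

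The order of the levels changed with age. At PND2 Gata6, Gata4 and Hand2 led with means of 113, 84.6 and 67.1 RPKM, and neighbours in this order overlapped. Nkx2-5 and Irx4 followed at 35.3 and 21.9 RPKM, and Tbx2, Mef2c, Tbx5, Gata5 and Tbx3 lay between 10.7 and 4.90 RPKM with no gap between neighbours. At 4 months Hand2, Gata6 and Gata4 still led, at 58.7, 49.0 and 46.4 RPKM, and their libraries overlapped. Mef2c came next at 14.1 RPKM, clear of its neighbours on either side. Irx4 had gone from rank 5 to rank 9 with a level that overlapped those of Gata5 and Tbx3. The place of Mef2c at both ages rests on its annotated exon length of 15715 bases, part of which had few or no reads. A set of 6 internal coding exons of Mef2c had means of 27.3 RPKM at PND2 and 34.2 RPKM at 4 months.

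Of the GATA factors, Gata4 (ENSMUSG00000021944, mm10 chr14:63198922-63271692, minus strand) is required in the endocardium for cushion and valve formation. It was measured at 68.3, 95.8 and 89.8 RPKM at PND2 and at 44.8, 47.1 and 47.2 RPKM at 4 months. The 4-month libraries lay within a narrow range below every PND2 library, a 1.82-fold fall of the mean (log2 difference −0.85 ± 0.13 SE, limma adjusted p = 0.0031). Its 16 tested exon records, several of which share bases, all had a lower mean at 4 months.

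Gata6 (ENSMUSG00000005836, chr18:11052510-11085635, plus strand), which acts in the outflow tract, in smooth muscle and in the endocardium, had 92.6, 122.9 and 122.3 RPKM at PND2 and 56.2, 43.5 and 47.1 RPKM at 4 months. The mean fell 2.30-fold (log2 difference −1.20 ± 0.15 SE, limma adjusted p = 0.0012), and all 7 exons were lower. The antisense-strand neighbour 1010001N08Rik, a long noncoding RNA whose annotation overlaps the first 58 bases of Gata6, fell too, from 27.1 ± 2.93 to 8.98 ± 1.98 RPKM (SD, n = 3; limma adjusted p = 6.4e-04). Whether reads were counted by strand is not stated, but most of this RNA lies outside Gata6.

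Gata5 (ENSMUSG00000015627, chr2:180325133-180334699, minus strand), an endocardial factor whose loss in mice is known to give bicuspid aortic valves, was the lowest of the GATA members. It had 8.05, 8.50 and 6.16 RPKM at PND2 and 5.47, 3.78 and 3.57 RPKM at 4 months, so the lowest PND2 library and the highest 4-month library were close. The mean fell 1.77-fold (log2 difference −0.82 ± 0.22 SE, limma adjusted p = 0.0230). The call rested on the full set of libraries: without PND2 replicate 1, PND2 replicate 2, 4 months replicate 2 or 4 months replicate 3 the limma adjusted p was 0.0579, 0.0727, 0.0680 and 0.0759, and the log2 difference stayed between −1.01 and −0.71.

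Within the GATA group the mix shifted less than the total. Gata6 made up 54.1 to 56.0% of the summed level of Gata4, Gata5 and Gata6 at PND2 and 46.1 to 52.8% at 4 months, and Gata4 made up 40.4 to 42.2% and 42.1 to 49.9%. The ratio of Gata6 to Gata4 inside a library was 1.33 ± 0.04 at PND2 and 1.06 ± 0.17 at 4 months, without overlap (2-sided exact permutation p = 0.1, the smallest that 3 libraries against 3 allow). The ratio of Gata5 to Gata4 was 0.0918 ± 0.0248 and 0.0926 ± 0.0256, with overlapping libraries (exact permutation p = 0.9). Among the other GATA genes, Gata2, an endothelial and blood factor, fell from 13.1 ± 2.58 to 6.22 ± 0.65 RPKM (limma adjusted p = 0.0039). Gata3 was measured at 2.33 ± 0.70 and 1.93 ± 0.33 RPKM (limma adjusted p = 0.531). Zfpm1, which encodes the GATA cofactor FOG1, fell from 34.4 ± 9.60 to 10.3 ± 1.18 RPKM (limma adjusted p = 0.0015), whereas Zfpm2, for FOG2, was at 9.27 ± 1.03 and 7.64 ± 0.15 RPKM (limma adjusted p = 0.147).

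Endothelial markers moved in the same direction as the GATA genes. All 9 of 9 endothelial markers fell, and their summed level was 546 to 756 RPKM at PND2 and 312 to 328 RPKM at 4 months. Tie1 fell from 97 ± 15.1 to 32.2 ± 1.86 RPKM. Among the PND2 libraries, replicate 1, whose reads leaned most to the 3′ end, was lowest for Gata4 and Gata6, and replicate 2 was lowest for the endothelial sum. The endothelial markers' part in the GATA values was not tested.

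The homeobox members had the largest falls of the 10. Nkx2-5 (ENSMUSG00000015579, chr17:26838664-26841565, minus strand), the homeodomain factor of cardiac progenitors and cardiomyocytes, was measured at 24.3, 43.2 and 38.2 RPKM at PND2 and at 7.41, 12.9 and 11.5 RPKM at 4 months. Every PND2 library was above every 4-month library, and the lowest library within each age was the one numbered 1. The mean fell 3.33-fold (log2 difference −1.72 ± 0.27 SE, limma adjusted p = 0.0030). The ratio of Nkx2-5 to Gata4 inside a library went from 0.411 ± 0.049 to 0.227 ± 0.055 without overlap (exact permutation p = 0.1).

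Irx4 (ENSMUSG00000021604, chr13:73260479-73269608, plus strand) is a factor of ventricular muscle and represses atrial genes. It had 13.2, 26.1 and 26.3 RPKM at PND2 and 0.698, 4.75 and 2.85 RPKM at 4 months, which stand for 1338, 2075 and 2009 reads and for 68, 295 and 215 reads. No library of 4 months came near the lowest of PND2, but the 4-month libraries differed among themselves by more than those of most members, with a coefficient of variation of 73.3%. The mean fell 7.90-fold (log2 difference −3.22 ± 0.64 SE, limma adjusted p = 0.0076), the largest fall among the 10, and leaving out 1 library at a time gave log2 differences from −3.77 to −2.47. All 6 tested exons were lower.

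The level of Irx4 was compared with Myl2, the ventricular myosin light chain, a pair chosen after its values were seen. Myl2 had 3395, 3476 and 3815 RPKM at PND2 and 278, 1881 and 1203 RPKM at 4 months (log2 difference −2.05 ± 0.63 SE, limma adjusted p = 0.0403, a call that was lost in 9 of 17 alternative settings). Both genes were lowest in replicate 1 and highest in replicate 3 at PND2, and both were lowest in replicate 1 and highest in replicate 2 at 4 months. The ratio of Irx4 to Myl2 was 0.00388, 0.00750 and 0.00690 at PND2. At 4 months it was 0.00252, 0.00253 and 0.00237, so Irx4 varied among the 4-month libraries in proportion to Myl2, and the ratio did not overlap between the ages (log2 difference −1.16, exact permutation p = 0.1).

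Irx4 also parted from Nkx2-5 and from Tbx5. The ratio of Nkx2-5 to Irx4, another pair chosen after the values were seen, was 1.45 to 1.85 at PND2 and 2.71 to 10.6 at 4 months. The ratio of Irx4 to Tbx5 was 3.02 ± 2.11 at PND2 and 0.304 ± 0.214 at 4 months, with no overlap (log2 difference −3.48, exact permutation p = 0.1). The other Iroquois genes Irx2 and Irx5 fell as well (log2 differences −1.31 and −1.75, limma adjusted p = 0.0408 and 0.0251), Irx2 with a call that held in 5 of the 17 alternatives. Irx1 and Irx3 had log2 differences of −1.99 and −0.92 (limma adjusted p = 0.0573 and 0.204). Irx6 was near the minimum level, at 0.0996 ± 0.0319 and 0.156 ± 0.025 RPKM from 7 to 18 reads a library, and was higher without overlap at 4 months but not called (log2 difference 0.37, limma adjusted p = 0.457).

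Most but not all cardiomyocyte markers fell, as Nkx2-5 and Irx4 did. Of 22 such markers 13 fell, 2 rose and 7 passed in neither direction, with a median log2 difference of −1.22. Actc1, the cardiac actin, fell from 6289 ± 670 to 1793 ± 685 RPKM, and Myh7, the slow myosin heavy chain, fell from 1722 ± 478 to 423 ± 181 RPKM, while the myoglobin gene Mb rose from 394 ± 115 to 1870 ± 863 RPKM. Their part in the falls of Nkx2-5 and Irx4 was not tested.

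**Figure D2:**
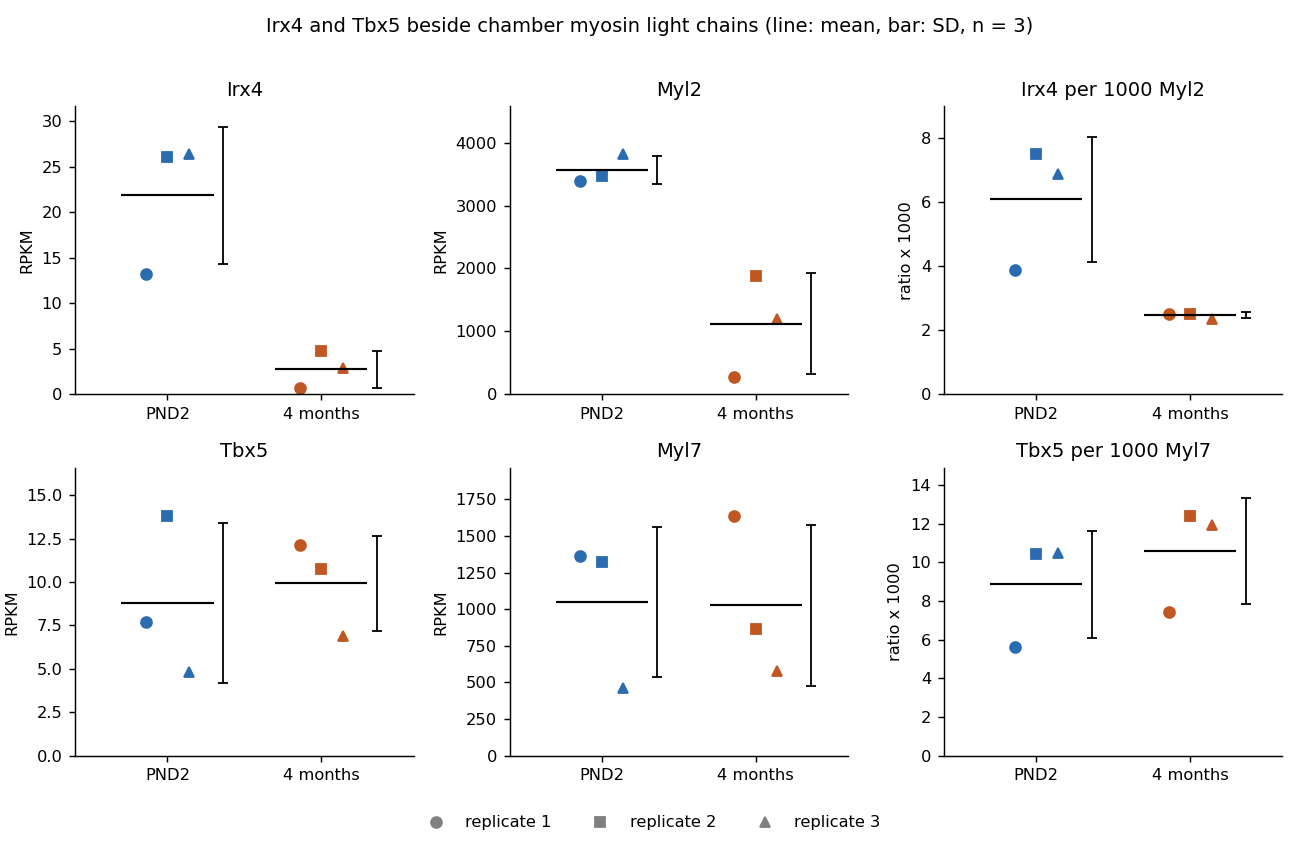
Each row plots a factor, a myosin light chain of the heart chambers and the ratio of both multiplied by 1000 in the 3 libraries of each age, with the mean as a line and the SD as a bar. The ratio of Irx4 to Myl2 is lower in every 4-month library and nearly equal among them, whereas the ratio of Tbx5 to Myl7 overlaps between the ages.

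None of the T-box members passed the test. Tbx5 (ENSMUSG00000018263, chr5:119832668-119885219, plus strand), the factor of atrial and left ventricular muscle that is mutated in Holt-Oram syndrome, had 7.70, 13.8 and 4.82 RPKM at PND2 and 12.2, 10.8 and 6.89 RPKM at 4 months. The libraries of both ages were interleaved (log2 difference 0.27, 95% confidence interval −0.64 to 1.17, limma adjusted p = 0.631), and without PND2 replicate 3 the difference was −0.09. Its spread was large at PND2, with a coefficient of variation of 52.3%, and smaller at 4 months (27.5%). The atrial light chain Myl7 had 1364, 1324 and 460 RPKM at PND2 and 1639, 866 and 576 RPKM at 4 months. Its coefficients of variation were 48.7% and 53.5%. Replicate 3 was the lowest library at both ages for both genes, while the highest at PND2 was replicate 2 for Tbx5 and replicate 1 for Myl7. The ratio of Tbx5 to Myl7, a pair chosen after its values were seen, was 0.00886 ± 0.00278 and 0.0106 ± 0.0028 (exact permutation p = 0.5).

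A noncoding first exon of 1 Tbx5 transcript (ENSMUSE00000289724, chr5:119834663-119835277, 615 bases) had 1.79, 1.598 and 1.28 RPKM at PND2 and 4.92, 5.74 and 2.92 RPKM at 4 months, from 23 to 113 reads. These values did not overlap between the ages, but the exon was not called against the rest of the gene (limma diffSplice adjusted p = 1.0), and it was chosen after its values were seen.

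Tbx3 (ENSMUSG00000018604, chr5:119670669-119684724, plus strand), a repressor that keeps conduction tissue from a working muscle program and acts in the outflow tract, had 3.68, 7.86 and 3.16 RPKM at PND2 and 1.93, 4.03 and 1.96 RPKM at 4 months. Replicate 2 was about double the others at both ages, and its 4-month value exceeded both other PND2 values, so the groups overlapped (log2 difference −0.83, 95% confidence interval −1.81 to 0.14, limma adjusted p = 0.163). All 17 tested exon records had a lower mean at 4 months. Several of them are nested or repeated and all come from the same libraries, so they are not separate support for a fall. The overlapping antisense gene Tbx3os1 was highest in replicate 2 at both ages too, with 2.28 and 1.21 RPKM, and was not called (log2 difference −0.95, limma adjusted p = 0.182).

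Hcn4, the pacemaker channel gene, had the same replicates highest as Tbx3: 10.7 RPKM in PND2 replicate 2, beside 4.62 and 5.34, and 4.18 RPKM in 4 months replicate 2, beside 2.21 and 1.84. Irx1, Irx2, Irx3 and Irx5 were also highest in replicate 2 at both ages, at 14.5 and 5.32 RPKM for Irx3, a factor of the ventricular conduction system, while Irx6 was highest in replicate 3 at both ages. This group was put together after the values were seen. Of 11 conduction markers 6 fell, and their summed level was 157 to 224 RPKM at PND2 and 44.5 to 94.3 RPKM at 4 months. Kcne1, a potassium channel subunit, fell from 69.4 ± 7.18 to 2.86 ± 3.61 RPKM. The part of conduction tissue in the Tbx3 values was not tested.

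Tbx2 (ENSMUSG00000000093, chr11:85832551-85841948, plus strand), a repressor of chamber genes in the cushions and outflow tract, stood at 9.16, 12.5 and 10.4 RPKM at PND2 and at 10.6, 7.82 and 8.98 RPKM at 4 months. The groups overlapped, and the 95% confidence interval of the log2 difference ran from −0.62 to 0.18 (difference −0.22, limma adjusted p = 0.354). Its neighbour 2610027K06Rik, a noncoding gene that starts 328 bases away on the other strand, rose from 1.22 ± 0.26 to 2.58 ± 0.32 RPKM (log2 difference 1.04 ± 0.24 SE, limma adjusted p = 0.0139).

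Ratios among the T-box genes were taken inside each library. The ratio of Tbx5 to Tbx3 was 1.79 ± 0.28 at PND2 and 4.16 ± 1.90 at 4 months without overlap (exact permutation p = 0.1), and that of Tbx2 to Tbx3 was 2.45 ± 0.85 and 4.01 ± 1.85 with overlap (exact permutation p = 0.3). Tbx20, the T-box gene of cushions and myocardium and not a member, was the most abundant of the family. It fell from 154 ± 20.6 to 70.4 ± 15.8 RPKM (log2 difference −1.14 ± 0.18 SE, limma adjusted p = 0.0033), and the ratio of Tbx20 to Tbx5 went from 20.1 ± 7.47 to 7.82 ± 4.04. Of the 9 tested genes in the list of other GATA and T-box genes, 3 fell (Gata2, Tbx20 and Mga) and none rose.

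Hand2 (ENSMUSG00000038193, chr8:57320983-57324517, plus strand) is the basic helix-loop-helix factor of the outflow tract, the right ventricle and the cushions. It varied little between libraries, with 62.0, 67.5 and 71.8 RPKM at PND2 and 53.4, 60.4 and 62.3 RPKM at 4 months, and coefficients of variation of 7.3% and 8.0%. The highest 4-month library slightly exceeded the lowest PND2 library (log2 difference −0.19, 95% confidence interval −0.43 to 0.04, limma adjusted p = 0.180). The ratio of Hand2 to Gata4 went from 0.804 ± 0.102 to 1.26 ± 0.07 without overlap (exact permutation p = 0.1). By gene RPKM Hand2 was above Gata4 in every 4-month library and in no PND2 library, but this order rests on annotated exon length. The first Hand2 exon had 52.6, 58.4 and 63.6 RPKM at 4 months. Gata4 exons lay on both sides, with 63.8, 66.7 and 68.8 RPKM in the last and 27.4, 29.4 and 27.5 RPKM in an exon of 1110 bases.

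Hand2 shares its start region with AV026068, a noncoding gene on the opposite strand whose start lies 124 bases upstream. AV026068 had 103, 80.7 and 84.2 RPKM at PND2 and 78.1, 89.7 and 88.4 RPKM at 4 months (log2 difference −0.06, 95% confidence interval −0.34 to 0.22, limma adjusted p = 0.735), a level similar to that of Hand2 and with overlapping ages. The antisense gene Gm28063 lies inside Hand2 and had nearly the same RPKM in each library, so reads of the pair cannot be told apart. The 250 bases before the Hand2 start, which hold the space between both genes, are shown because 2 transcripts leave from them, next to the window of Nkx2-5, a member that fell. The windows come from the RefSeq promoter table (GRCm38.p6), which held 5 of the 10 members (Gata5, Hand2, Irx4, Mef2c and Nkx2-5).
Hand2, chr8:57320733-57320982, plus strand: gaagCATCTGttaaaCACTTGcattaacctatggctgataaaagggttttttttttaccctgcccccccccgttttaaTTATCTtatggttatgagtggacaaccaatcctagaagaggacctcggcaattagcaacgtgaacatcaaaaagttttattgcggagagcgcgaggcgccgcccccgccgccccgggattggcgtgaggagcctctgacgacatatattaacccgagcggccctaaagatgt
Nkx2-5, chr17:26841566-26841815, minus strand: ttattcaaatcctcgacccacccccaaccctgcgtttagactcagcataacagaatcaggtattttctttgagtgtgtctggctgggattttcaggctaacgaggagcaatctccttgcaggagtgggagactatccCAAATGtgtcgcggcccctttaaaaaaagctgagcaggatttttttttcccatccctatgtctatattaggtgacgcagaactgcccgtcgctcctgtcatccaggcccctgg

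Both windows are written 5′ to 3′ in the direction of the gene, and capitals mark matches of the motifs searched on both strands. The motifs were AGATAA for GATA factors, GGTGTGA for T-box factors, AAGTG for Nkx2-5, CANNTG (the E-box) for Hand2 and its relatives, and the MEF2 motif. The Hand2 window held the GATA motif on the minus strand 172 to 167 bases before the start, the Nkx2-5 motif 235 to 231 bases before it, inside an E-box at 235 to 230, and a further E-box at 246 to 241. The Nkx2-5 window held 1 E-box, 113 to 108 bases before the start, and the Irx4 window held none of the motifs. Of 32851 windows of the same length, 9.99% held the GATA motif, 3.33% the T-box motif, 40.7% the Nkx2-5 motif, 66.2% an E-box and 2.92% the MEF2 motif, so these matches are common and are a description of the sequence.

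Mef2c (ENSMUSG00000005583, chr13:83504034-83667080, plus strand) is the MADS-box factor of the second heart field, of muscle and of endothelium, and was the member that rose. It was measured at 8.71, 8.71 and 9.69 RPKM at PND2 and at 14.5, 14.4 and 13.5 RPKM at 4 months. Replicates were close at both ages and did not overlap, for a 1.56-fold rise of the mean (log2 difference 0.64 ± 0.11 SE, limma adjusted p = 0.0043), and the call held in all 17 alternative settings. Its relatives Mef2a and Mef2d passed in neither direction, with log2 differences of −0.19 and 0.24, and the ratio of Mef2c to Mef2a rose from 0.118 ± 0.006 to 0.210 ± 0.006 in means, without overlap (exact permutation p = 0.1). Smooth muscle markers moved with Mef2c, with 6 of 8 higher and 0 lower and a summed level of 7454 to 8614 RPKM at PND2 and 16842 to 27883 RPKM at 4 months, as did macrophage markers, with 4 of 6 higher. Myh11, the smooth muscle myosin, rose from 156 ± 38.6 to 1729 ± 451 RPKM. Endothelial markers went the other way, with 9 of 9 lower, and of 22 cardiomyocyte markers 13 were lower and 2 higher. Adipocyte markers (5 of 6) and Schwann cell markers (2 of 5) were higher too. The part of any of these cell types in the Mef2c value was not tested.

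The mean difference between the ages was unequal among parts of the Mef2c transcript, but a change of a part relative to the rest was not established. The record of the whole last exon was not called against the rest of the gene (limma diffSplice with voom weights, adjusted p = 0.681). The 6 internal coding exons used (818 bases in all) had 17.8, 29.2 and 34.8 RPKM at PND2 and 39.1, 32.9 and 30.6 RPKM at 4 months, which overlapped (exact permutation p = 0.4). The first 2656 bases of the last exon went from 20.0 ± 0.91 to 28.6 ± 1.48 RPKM, and the remaining 2116 bases went from 24.0 ± 2.32 to 46.5 ± 0.89 RPKM, a 1.94-fold difference without overlap (exact permutation p = 0.1 for each part). The ratio of the remaining part to the internal exons was 1.47, 0.736 and 0.702 at PND2 and 1.22, 1.40 and 1.51 at 4 months, so PND2 replicate 1 lay among the 4-month libraries (exact permutation p = 0.3). That is the PND2 library whose reads leaned to the 3′ end over those 2448 genes, with a balance above those of the 4-month libraries, and the part of this balance in the Mef2c values was not tested. These parts were chosen after the values were seen.

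**Figure D3:**
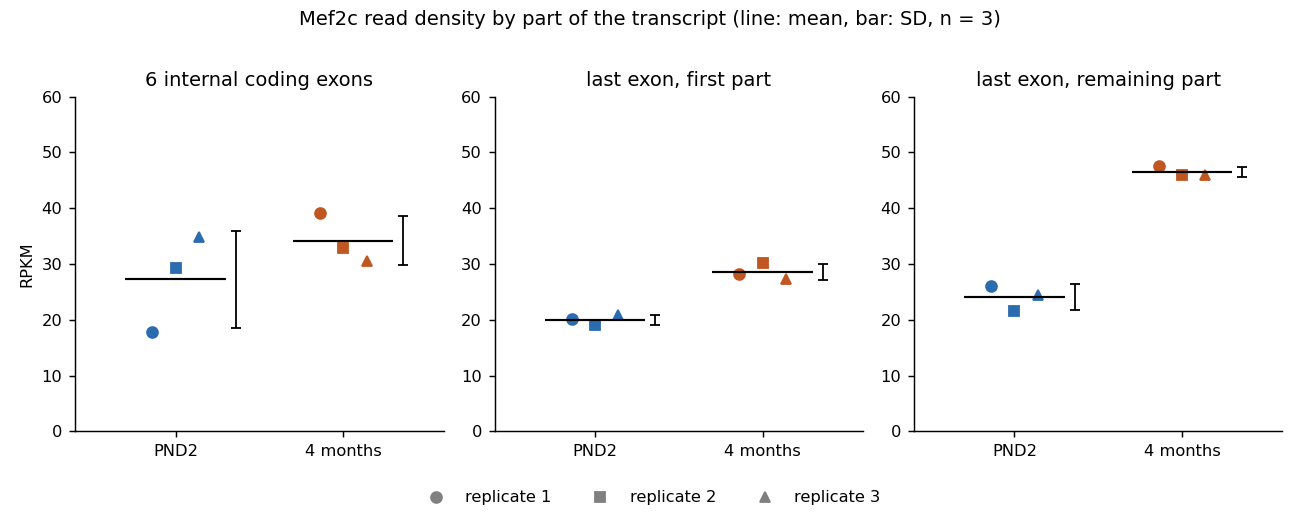
The panels plot the RPKM of 3 parts of Mef2c in the 3 libraries of each age on the same axis, with the mean as a line and the SD as a bar. The ages overlap in the 6 internal coding exons, and the difference is largest in the remaining part of the last exon, from 24.0 to 46.5 RPKM.

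Mef2c has a pair of alternative exons of which an annotated transcript uses one or the other: 10 transcripts hold the first, 7 the second and 0 both. Their sequences are given because they let the isoforms be told apart. They come from the mm10 transcripts, 5′ to 3′ on the plus strand, in lower case throughout.
ENSMUSE00000680752, chr13:83625265-83625408: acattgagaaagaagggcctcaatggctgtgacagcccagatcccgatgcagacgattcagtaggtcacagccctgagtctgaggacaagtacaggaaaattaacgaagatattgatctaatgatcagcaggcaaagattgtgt
ENSMUSE00000118834, chr13:83625470-83625607: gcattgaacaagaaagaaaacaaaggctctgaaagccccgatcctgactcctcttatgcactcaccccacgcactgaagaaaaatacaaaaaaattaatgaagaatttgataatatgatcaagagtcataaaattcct

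The exons are 144 and 138 bases long and were identical at 68.6% of 137 aligned bases. The first was covered by 151, 186 and 177 reads at PND2 and by 249, 133 and 156 reads at 4 months. The second had 0, 4 and 4 reads at PND2 and 9, 10 and 4 reads at 4 months, so nearly all reads came from the first at both ages. The share of the second was 0, 2.11 and 2.21% at PND2, where 0 of 151 reads allows a share of up to 1.99% by the limit of 3 reads or 2.48% by the Wilson upper bound, and 3.49, 6.99 and 2.50% at 4 months, with Wilson 95% confidence intervals that reached from 0 to 5.54% at PND2 and from 0.976 to 12.4% at 4 months. The means were 1.44 ± 1.25% and 4.33 ± 2.36% (exact permutation p = 0.1), and the intervals cover counting error only. Over all members 130 of 153 exon records were tested for a change relative to their gene. Limma's diffSplice called 3, all of them records of the second Mef2c exon, against 1.19% of all exons tested, but with voom weights it called 0 (0.493% of all exons), so no exon change is reported.

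The 10 factors were set beside 30 other cardiac transcription factors and cofactors, of which 28 were tested. Of these 10 fell, 2 rose and 16 passed in neither direction, with a median log2 difference of −0.46. Isl1, the marker of the second heart field, fell from 4.67 ± 0.42 to 2.46 ± 0.75 RPKM, Hopx, a small homeodomain cofactor, from 108 ± 14.9 to 45.2 ± 19.0 RPKM, and Smyd1, a muscle methyltransferase, from 74.2 ± 7.57 to 40.8 ± 13.3 RPKM. Casz1, a zinc finger factor of cardiomyocytes, fell from 6.88 ± 0.91 to 2.75 ± 0.30 RPKM, and Tead1, a partner of YAP, from 33.9 ± 5.38 to 18.9 ± 2.34 RPKM. The 2 that rose were Prdm16, from 6.38 ± 1.74 to 13.8 ± 2.22 RPKM, and the zinc finger gene Zfp281, from 11.3 ± 1.35 to 15.6 ± 1.19 RPKM. The calls of Isl1, Smyd1 and Zfp281, like that of Irx5, were lost without single libraries, with limma adjusted p of up to 0.0670, 0.0588, 0.0898 and 0.0654. The muscle coactivator Myocd, at 24.8 ± 0.81 and 25.5 ± 3.89 RPKM, and its partner Srf, at 44.7 ± 6.07 and 41.5 ± 3.27 RPKM, were not called, and Nkx2-6 was at 0 in every library.

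**Figure D4:**
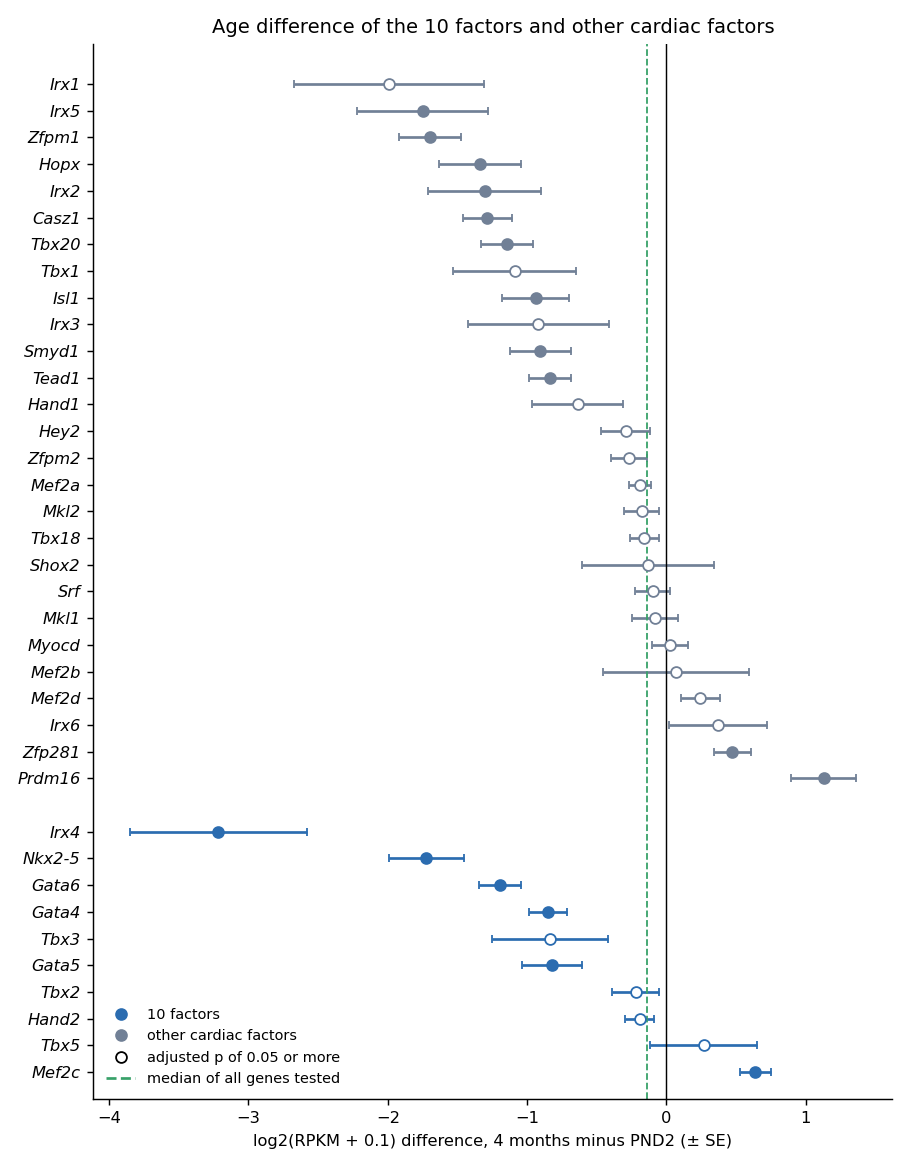
Points are log2 differences in RPKM + 0.1 (4 months minus PND2) with their SE for the 10 factors (blue) and 27 of the 28 tested other cardiac factors (grey), filled where the adjusted p was under 0.05. The dashed line is the median of all genes tested, −0.14, and most points of both sets lie to its left, from Irx4 at −3.22 to Prdm16 at 1.13.

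Each factor was also matched to the protein-coding gene with the most similar profile among 13728 genes, by Pearson's r of log2 values over the 6 libraries, which share the split by age. The closest were Cxcl12, a chemokine of endothelial and stromal cells, for Gata4 (r = 0.998), Eif2b5, a translation initiation factor subunit, for Gata6 (1.00), Coro6 for Irx4 (0.998), Tmem201 for Nkx2-5 (0.997) and H2-Q6, an MHC class I gene, for Mef2c (0.999). For the others they were Frmpd1 (Gata5, 0.996), Dvl2 (Hand2, 0.992), Haghl (Tbx2, 0.994), Kif5c (Tbx3, 0.993) and Spice1 (Tbx5, 0.997). No member was the closest gene of another member, and no listed cell marker was closest to any of them. With 13728 genes to choose from and only 6 libraries, such matches and misses cannot decide whether genes share a cell type or a regulator. Pearson's r also ignores the size of a difference: the log2 difference was −0.39 for Eif2b5 and −1.20 for Gata6.

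Other marker lists give the surroundings of these values. Of 8 epicardial or mesothelial markers 2 fell and 0 rose, with summed levels of 266 to 377 RPKM at PND2 and 191 to 267 RPKM at 4 months. Of 12 valve interstitial or fibroblast markers 4 fell and 3 rose, Postn from 1019 ± 110 to 520 ± 18.6 RPKM and Dcn from 1054 ± 60 to 3961 ± 506 RPKM. Of 6 adipocyte markers 5 rose, 3 of which (Cidec, Retn and Lep) were at 0 in all PND2 libraries, and 2 of 5 Schwann cell markers rose. Of 7 tested skeletal muscle markers 4 fell and 0 rose.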

How the data were processed

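Total RNA of pooled aortic valves was made into stranded mRNA libraries. The authors aligned the reads to mm10 (TopHat2 2.1.0 and R 3.2.2 in the submitters' processing notes), took counts per Ensembl gene and exon with easyRNASeq, and deposited RPKM values per gene and exon. Whole reads were recovered from 100% of the deposited RPKM values above 0 (within 0.01 of a read). Whether counting used strand is not stated in the sources used here.

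Genes that reached 0.1 RPKM in 3 libraries were compared on log2(RPKM + 0.1), which understates changes of low genes, with limma 3.58.1 (R 4.3.3, eBayes with trend, 2-sided, Benjamini-Hochberg over all genes tested, adjusted p under 0.05). Exons that reached 1 RPKM in 3 libraries were tested with diffSplice. Ratios were compared with exact permutation tests (scipy 1.17.1). Values are means ± SD of 3 libraries unless SE is given, and folds are ratios of mean RPKM. The libraries are labelled biological replicates, each a pool. Tests were checked on simulated data. Sequences were read with biopython 1.88, and tables and figures used Python 3.11.15, numpy 2.4.6, pandas 2.3.3, data.table (1.17.8) and matplotlib 3.10.9.

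The members, gene lists and tests were chosen with earlier results of these data known. Named are all members, list genes that passed the test, up to 6 abundant examples of each marker list, neighbours within 5 kb, and the closest profile of each member. Chosen after seeing values were the genes so described, the Mef2c parts and exon pair, Myl7, Hcn4 and the uncalled Irx genes as examples, and the tested genes named without a call. Some list genes are counted but not reported here by name. Alternatives were pseudocounts of 1 and 0.01, other filters, no trend, a per-gene unequal-variance test, median and quantile scaling, a floor at 10 reads, voom on recovered reads, a replicate block, other thresholds and each library left out.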

Additional observations from a re-analysis of the deposited data

How the results depend on the processing

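Gata6 and Mef2c kept their calls in all 17 alternative settings, and Gata4, Nkx2-5 and Irx4 in 16. A per-gene unequal-variance test, the kind the study used, was run with the filter and pseudocount used here, without the study's filter and read floor. It left 1 of the 5 lower members, 1 of the 10 lower and 0 of the 2 higher other cardiac factors. Of all genes it left 1942 lower and 1466 higher, against 5463 and 3810 with limma as reported. These counts are not the study's own calls. The paper lists Gata6 and Nkx2-5 among cell proliferation genes that were lower in adults. Those genes came from its set with a false discovery rate under 0.05 and a fold change over 2. Adding a fold change over 2 to the limma call left 3 lower and 0 higher members and 1 higher other cardiac factor. With that addition 2193 lower and 2259 higher genes were left. With voom on the recovered reads limma called the same numbers of members, 5 and 1, with 5604 lower and 4092 higher genes. Voom weights left 0 member exon calls of 3. Median scaling moved the median of all genes from −0.14 to −0.02 and the calls to 4129 lower and 4601 higher genes, against 5463 and 3810, with 5 and 1 members as before; a member's difference relative to the median is thus 0.14 higher than printed. Under median and quantile scaling Myl7 went to 0.11 and 0.23, and under median scaling AV026068 went to 0.062; neither was called in any setting.

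Leaving out 1 library at a time gave 4 to 5 lower members and 1 higher, 6 to 12 lower and 1 to 2 higher other cardiac factors (6 without 4 months replicate 3), 3403 to 5114 lower genes (fewest without PND2 replicate 3), 2634 to 3467 higher genes, and 0 to 3 member exon calls (0 without any 1 of the 4-month libraries). Log2 differences ran from −0.094 (without PND2 replicate 3) to 0.66 for Tbx5, from −0.52 to 0.34 for Myl7, from −0.13 to 0.048 for AV026068 and from −0.18 to 0.23 for the ratio of Gata5 to Gata4. Calls were lost for Isl1 without PND2 replicate 2 or 4 months replicate 2 or 3, for Irx5 without PND2 replicate 2 or 4 months replicate 1 or 3, for Smyd1 without replicate 3 of either age, for Zfp281 without replicates 2 or 3 of either age, and for Irx2 without any 1 library other than PND2 replicate 1. The replicate numbers do not pair the libraries (correlations of deviations 0.0439, −0.0608 and −0.160). With a replicate block, limma also called Tbx3 (adjusted p = 0.0339) and lost Zfp281 (0.0739), which left 1 higher other cardiac factor. Over the single genes followed, 360 values kept direction and call, 54 lost the call, 1 gained it and 10 changed sign; the causes were not tested. With 3 libraries an age, the exact tests of ratios and exon shares cannot pass 0.05 and say nothing of stability.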
